A study of Mus musculus with 2 samples.

Results

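Plasma cells make and secrete antibody, and mucosal epithelium carries polymeric IgA into the airway lumen. The 8 genes described here belong to these steps and were compared between wild-type and Rosa26-Foxm1 mouse lung. They are Jchain and Pigr for polymeric IgA assembly and transport, Mzb1, Tnfrsf17 and Sdc1 for plasma cell secretion and surface, and Xbp1, Prdm1 and Irf4 for the transcription factors of the plasma cell programme. They were chosen by gene symbol, with the older name Igj counted as Jchain. All 8 had a probe, out of 13840 named genes on the array, and each had 1 probe. The choice was made with the differences of these genes already known, so every difference given for them is a description, and no test is made of it.

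The lungs came from mice 12 weeks after the carcinogen 3-methylcholanthrene (MCA), given as 1 intraperitoneal injection of 15 µg per g body weight. Both groups then received 6 weekly doses of the lung tumour promoter butylated hydroxytoluene (BHT), 150 µg/g at first and 200 µg/g afterwards, so no lung without carcinogen is among the samples used here. Wild-type mice were FVB/N and labelled as male. Rosa26-Foxm1 mice carry a transgene for the forkhead transcription factor Foxm1, named for the Rosa26 promoter, which is active in most cell types, and their own sample labels give no strain or sex. These mice and their lungs are called transgenic below. A pool of RNA per group, from the left lobes of 3 mice, went onto 1 array, so the spread between mice is unknown and no p-value is given. Sex, any difference in strain, the pool of mice and the array cannot be told apart from genotype.

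Of the 13840 named genes, 9518 had a signal above the floor, set at the array's median intensity of 1.00, on at least 1 array. All 8 members were among them, and Tnfrsf17 passed only through the transgenic array. The error beside a difference is the spread between probes of a gene, called the probe SD here, which was 0.31 on the log2 scale over 317 genes (0.38 for dimmer and 0.23 for brighter pairs). It leaves out differences between mice. Lung markers were bright on both arrays, with surfactant gene Sftpc at 1228 in wild-type and 859 in transgenic lung and the club cell gene Scgb1a1 at 2544 and 1767.

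As background, plasma cells form when Irf4 and then Prdm1 (Blimp-1) shut down the B cell programme. Xbp1, a factor of the unfolded protein response, then expands the endoplasmic reticulum for antibody secretion. The joining chain links IgA or IgM monomers into polymers. The polymeric immunoglobulin receptor on the basal side of epithelial cells binds these polymers, ferries them across the cell and is cleaved to release secretory IgA, the main antibody of airway mucus. Plasma cells are rare in the lung of healthy young mice and gather around airways and in tertiary lymphoid tissue under chronic inflammation.

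The 8 genes did not move as a block. The IgA assembly and transport genes Jchain and Pigr were 8.37-fold and 5.34-fold higher in transgenic lung, and the plasma cell genes Mzb1 and Tnfrsf17 were 3.02-fold and at least 2.21-fold higher. The 3 transcription factors lay within 0.32 of 0 on the log2 scale, and Sdc1 was 1.52-fold lower. In all, 4 of the 8 were at least 2-fold higher and none was 2-fold lower, beside 1.99% and 1.51% of all measured genes. Those shares are given as context only, since the same contrast chose the members. The members' median log2 difference was 0.61, and that of all measured genes was -0.06.

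**Figure D1:**
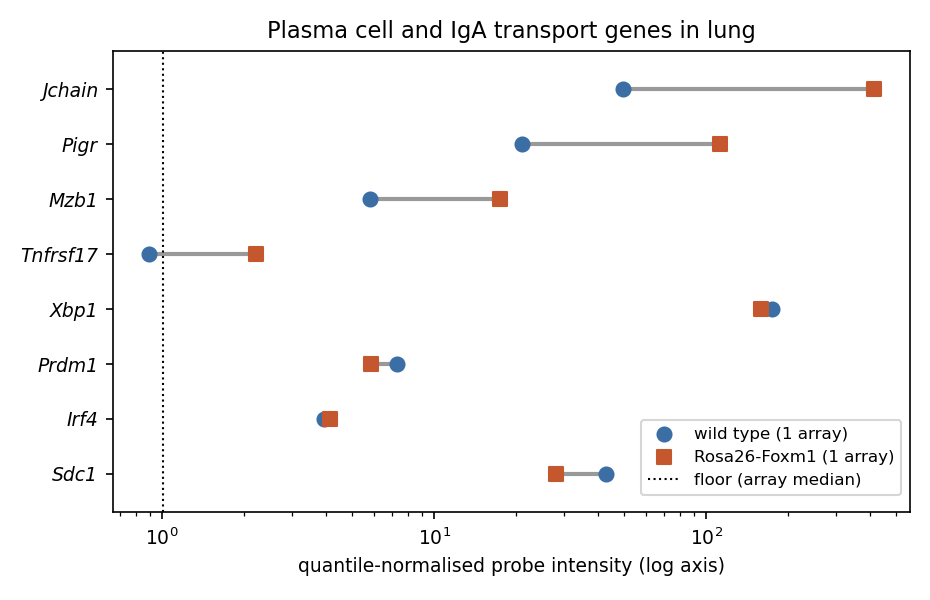
Quantile-normalised probe intensity (log axis) of each gene on the wild-type array (blue circle) and the transgenic array (orange square), 1 array per genotype. The dotted line is the floor at the array median. Long bars to the right mark Jchain (49.3 to 413), Pigr (21.0 to 112) and Mzb1 (5.80 to 17.5), while the paired points of Xbp1 and Irf4 nearly coincide. Levels are to be compared within a gene only.

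Jchain encodes the joining chain, made by antibody-secreting cells. Its probe read 49.3 in wild-type and 413 in transgenic lung after quantile normalisation, and 48.2 and 451 as deposited. The probe moved from the 93.0th to the 99.3rd percentile of all probes of its array. The log2 difference of 3.06 ranked 9th from the top among 9518 measured genes. Among the 476 genes of like brightness, 5% lay below -0.66 and 5% above 0.53, and Jchain was number 2 from the top. Because whole lung was used, more plasma cells and more joining chain RNA per cell cannot be told apart. No probe assigned to 1 gene in the annotation used here named an immunoglobulin chain gene, so these data do not separate IgA from IgM.

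Pigr encodes the polymeric immunoglobulin receptor, which epithelial cells rather than plasma cells make. Its values were 21.0 in wild-type and 112 in transgenic lung, or 20.9 and 116 as deposited. The probe stood at the 86.4th percentile of its array in the first and at the 96.9th in the second. With a log2 difference of 2.42 it was number 18 from the top of all measured genes and number 1 among the 476 genes of like brightness. The chain that makes the polymer and the receptor that carries it were thus both higher in transgenic lung.

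**Figure D2:**
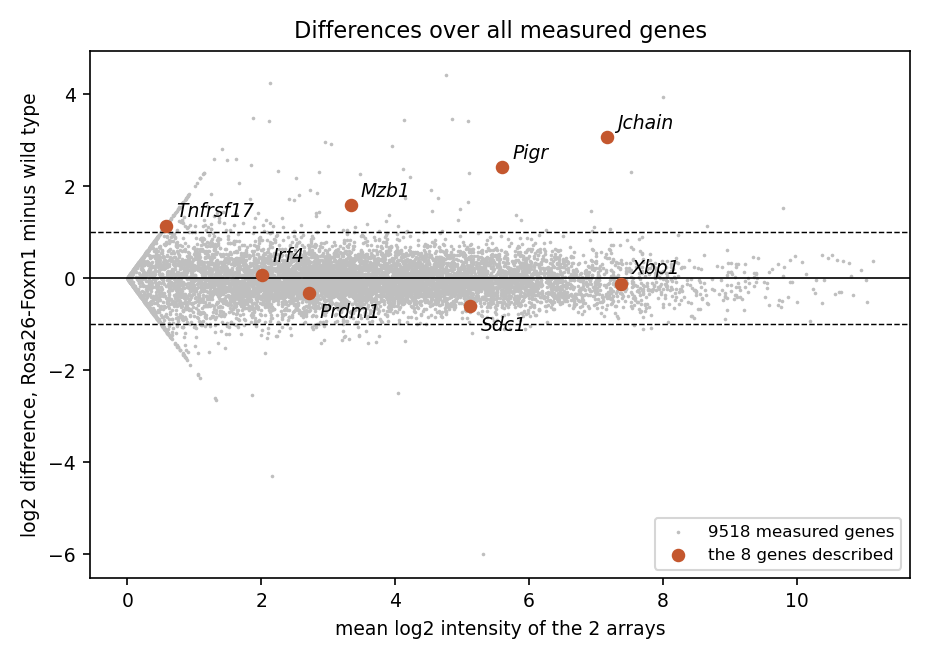
Log2 difference (Rosa26-Foxm1 minus wild type) of the 9518 measured genes (grey) against the mean log2 intensity of both arrays, with the 8 genes in orange. Dashed lines mark 2-fold. Jchain at 3.06 and Pigr at 2.42 stand far above most genes of like brightness. Mzb1 at 1.59 and Tnfrsf17 at 1.14 lie above the upper dashed line. Tnfrsf17 is among dim genes that spread widely, with 5% of its brightness class above 1.16. Xbp1, Prdm1 and Irf4 lie inside the grey cloud. Sdc1 at -0.60 lies toward its lower side, with 5% of its class below -0.56. The slanted grey edges on the left are genes below the floor on 1 array.

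Mzb1 encodes an endoplasmic reticulum chaperone of marginal zone B cells and plasma cells that helps assemble secreted antibody. It read 5.80 in wild-type and 17.5 in transgenic lung (5.91 and 17.5 as deposited), a log2 difference of 1.59 and rank 56 from the top. Within its brightness class of 476 genes it was number 2. Like Jchain, it is a gene of the antibody-secreting cell rather than of the epithelium.

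Tnfrsf17 encodes BCMA, the receptor through which long-lived plasma cells receive survival signals from the ligand APRIL. In wild-type lung it was below the floor, at 0.893, and in transgenic lung it read 2.21. The deposited values of 0.888 and 2.18 differ 2.46-fold, and with the wild-type value raised to the floor the difference is at least 2.21-fold. Both values are dim, at the 48.2nd and 60.5th percentiles. In its brightness class 5% of the 476 genes lay above 1.16, just beyond the 1.14 of Tnfrsf17, which was number 30 from the top. It is the dimmest of the 4 higher genes, and its wild-type level is known only as a bound.

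The promoters of 3 of the higher genes are shown because these genes differed in the same direction. The sequences are the 250 bases before the start, from RefSeq on GRCm38.p6, and a window was matched for 7 of the 8 genes, Mzb1 being the other. The window of Jchain is chr5:88527898-88528147, minus strand. That of Pigr is chr1:130826434-130826683, plus strand. That of Tnfrsf17 is chr16:11313559-11313808, plus strand. Capitals mark matches to the motifs searched.
Jchain: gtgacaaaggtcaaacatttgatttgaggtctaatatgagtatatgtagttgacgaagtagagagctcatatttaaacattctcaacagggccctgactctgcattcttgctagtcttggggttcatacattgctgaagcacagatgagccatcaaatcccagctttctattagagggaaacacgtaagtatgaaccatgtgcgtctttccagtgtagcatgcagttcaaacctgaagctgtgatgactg
Pigr: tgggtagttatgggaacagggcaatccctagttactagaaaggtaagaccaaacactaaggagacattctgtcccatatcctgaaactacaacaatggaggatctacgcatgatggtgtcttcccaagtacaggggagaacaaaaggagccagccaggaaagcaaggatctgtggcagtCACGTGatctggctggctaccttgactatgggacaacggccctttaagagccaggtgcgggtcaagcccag
Tnfrsf17: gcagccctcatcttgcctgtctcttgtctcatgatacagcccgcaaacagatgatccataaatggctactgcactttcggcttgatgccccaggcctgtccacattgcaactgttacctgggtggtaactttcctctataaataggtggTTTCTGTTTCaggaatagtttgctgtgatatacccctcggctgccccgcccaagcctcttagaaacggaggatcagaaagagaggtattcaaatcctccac

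Both strands were searched for 7 exact motifs. They were the interferon-stimulated response element core bound by Irf factors and Prdm1 (GAAANNGAAA), an ETS-IRF composite (GGAANNGAAA), a core of the Xbp1 element (GACGTG), the ER stress element (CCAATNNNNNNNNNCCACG), an E-box (CACGTG), an NF-kB site (GGGANNTTCC) and the octamer of B cell promoters (ATTTGCAT). The E-box and the Xbp1 core share 5 of their letters, and no 2 matches overlapped in the members. Pigr held the E-box, 71 to 66 bases before its start, which 6.02% of 32817 promoter windows held. Tnfrsf17 held the response element core on the opposite strand, 101 to 92 bases before its start, beside 2.97% of all windows. Jchain, Xbp1, Prdm1, Irf4 and Sdc1 held none of the 7 in these windows. Jchain, Pigr and Tnfrsf17 thus shared no motif of this set. The GC content of the windows ran from 42.0% to 50.4% in these 3 genes and from 50.4% to 66.0% in Xbp1, Prdm1, Irf4 and Sdc1, with a median of 52.4% over all windows.

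Xbp1, whose spliced product drives the secretory programme, was bright and nearly the same in both lungs. It read 174 in wild-type and 159 in transgenic lung, a log2 difference of -0.14, and 166 and 167 as deposited. With median scaling or the deposited values the difference was 0.01, so it has no direction. Xbp1 is also made by many secretory epithelial cells, and a probe value does not separate the spliced from the unspliced form. Prdm1, which encodes Blimp-1, read 7.29 and 5.87 (7.36 and 5.77 as deposited), a log2 difference of -0.31, about the size of the probe SD. Irf4 read 3.94 and 4.14 (3.99 and 4.09 as deposited), a difference of 0.07 that is well inside it. Prdm1 and Irf4 are also made by T cells, macrophages and dendritic cells.

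Sdc1 encodes syndecan-1, the CD138 antigen used to sort plasma cells and also a heparan sulphate proteoglycan of most epithelia. It went the other way, with 42.8 in wild-type and 28.2 in transgenic lung (42.0 and 28.7 as deposited). That is 1.52-fold lower, with a log2 difference of -0.60, and 1 of the 8 genes past the 1.5-fold size in that direction, beside 8.46% of all measured genes. With median scaling it was -0.55, just short of 1.5-fold. Its rank from the bottom was 735 of 9518, and 19 of 476 in its brightness class. Of 20 measured epithelial identity genes, 1 was past 1.5-fold upward and none downward, with 13 above 0, 7 below and a median of 0.12. Markers of single epithelial types were mixed. The club cell genes Aldh1a1, Scgb1a1 and Cyp2f2 were at -0.63, -0.53 and -0.34. The type II cell genes Slc34a2, Sftpc, Lamp3 and Sftpb were at -0.56, -0.52, -0.30 and -0.29, while Sftpa1 was at 0.51. The measured ciliated cell genes Tppp3, Foxj1 and Tekt1 were at 0.13, 0.09 and 0.07. Apart from Scgb1a1 and Sftpc, these markers were named after their values were seen. The part of epithelial cells in the Sdc1 value was not tested. Cldn7, a tight junction claudin, was highest among the identity genes (31.0 against 54.9). Krt7, a simple epithelial keratin, was at -0.39 (556 against 425) and at -0.07 with median scaling.

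**Figure D3:**
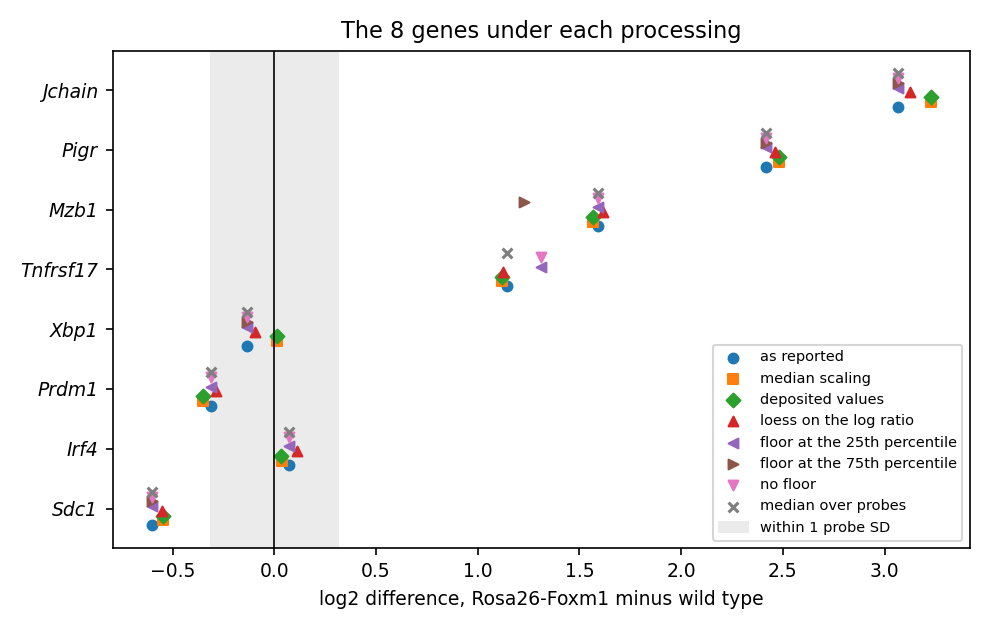
Log2 difference (Rosa26-Foxm1 minus wild type) of each of the 8 genes as reported and under 7 other ways of processing. The grey band is 1 probe SD (0.31) on each side of 0. Jchain, Pigr, Mzb1 and Tnfrsf17 stay right of 1 wherever they were measured, Sdc1 stays between -0.60 and -0.55, and Xbp1 lies on both sides of 0.

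Lists of genes that work with the members were read at the 1.5-fold size, which 7.1% of all measured genes passed upward and 8.46% downward. The lists were chosen with earlier results of these data known. The secretory pathway that Xbp1 controls in plasma cells had 55 measured genes, of which 6 (10.9%) were higher and none was lower. Its median of 0.04 is close to that of all genes. The higher genes were Edem1 and Sel1l of the disposal of misfolded proteins (26.6 against 42.7 and 2.20 against 3.43), the translocon-associated Ssr4 (98.5 against 152), and, named after their values were seen, the translocon subunit Sec61b, the signal peptidase subunit Sec11c and Derl3 (log2 differences of 0.62, 0.61 and 0.62). The lowest were Sec61a1, the main translocon channel (28.7 against 19.4), Herpud1 and Txndc11. Components of the same translocon thus lay on opposite sides.

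The sensors and effectors of the unfolded protein response were mostly level. Of 10 measured, 1 was higher and none lower, with a median of -0.07. The higher gene was the stress factor Atf3, which read 24.4 in transgenic lung, 2.21-fold its wild-type value. The stress factor Ddit3 was next at 0.58, just below 1.5-fold, and past it with median scaling. Ern1, the enzyme that splices Xbp1, was close to the floor at 1.08 and 1.52. Eif2ak3, the kinase PERK, was lowest at -0.37.

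Among 14 measured other plasma cell genes, 3 were higher and 2 lower, with a median of 0.06 that turned negative with a higher floor. Slamf7, a plasma cell surface receptor that is also on NK cells, was 1.70-fold higher (2.23 against 3.79). Bst2, an interferon-induced surface protein, was 1.57-fold higher and Cd28 1.51-fold. The adhesion receptor Cd44 (30.9 against 20.6) and Ly6k (2.40 against 1.16) were lower. Cd44 and Cd28 are also genes of T cells. With median scaling both were short of 1.5-fold, which left 2 genes of this list higher and 1 lower.

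The regulators that B cells use or lose on the way to plasma cells were split, with 2 of 16 higher, 2 lower and a median of -0.03. Batf, a factor of antibody class switching, read 5.03 in wild-type and 8.85 in transgenic lung (1.76-fold higher). Myc was 1.57-fold higher. Bcl6 and Ebf1, factors of the germinal centre and of B cell identity that plasma cells lose, were 1.54-fold and 1.71-fold lower, with 5.54 against 3.60 and 11.4 against 6.63. Ebf1 is also made by stromal cells. In the list of B cell identity genes 2 of 17 were higher and 3 lower, around a median of -0.03. The complement receptor Cr2, Ms4a1 (CD20) and the follicle homing receptor Cxcr5 were lowest, at log2 differences of -1.62, -0.96 and -0.77. The activation marker Cd83, the adaptor Blnk and the homing receptor Ccr7 were highest, at 0.64, 0.60 and 0.31, so the list lay on both sides of 0.

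Of 8 defining B cell markers, 7 had a probe and 4 were above the floor, with differences from -0.07 in Cd79a to -1.62 in Cr2. Of these 4, 0 were 1.5-fold higher and 2 lower, with a median of -0.75. The sum of the B cell markers, with the dim probes, was 67.2 in wild-type and 44.0 in transgenic lung. Most of it came from Cd79b (48.5 and 33.4). Cd22, Blk and Pax5 were below the floor on both arrays. The sums are carried by the brightest probes, so medians and counts stand beside those that follow. T cell markers summed to 55.9 and 63.1 over 8 genes, with Cd4 below the floor on both arrays, and 3 of 7 measured were at least 1.5-fold higher around a median of 0.35. Macrophage markers summed to 1702 and 1593 over 8 genes, with 1 higher and 2 lower around a median of -0.43. Of these macrophage genes 3 lay above 0 and 5 below. Marco was below the floor in transgenic lung and Siglecf was 2.39-fold lower, while Cd14 was 1.77-fold higher, Ctss at 0.46 and Mrc1 at 0.06. Dendritic cell markers summed to 50.1 and 48.4 over 9 genes, with 1 higher, 2 lower and a median of 0.27. These cells can also make Irf4 and Prdm1. Markers of endothelium summed to 947 and 516 over 6 genes, with a median of -0.87 and 5 lower. Club cell markers, of cells that can make Pigr, summed to 5329 and 3813 over 3 genes, all 3 of them below 0 in difference with a median of -0.53. Type II cell markers summed to 4569 and 4292 over 5 genes with a median of -0.30, and ciliated cell markers to 549.6 and 599 over 4 with a median of 0.09 over the 3 measured. The part of these shifts in the members' values was not tested.

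**Figure D4:**
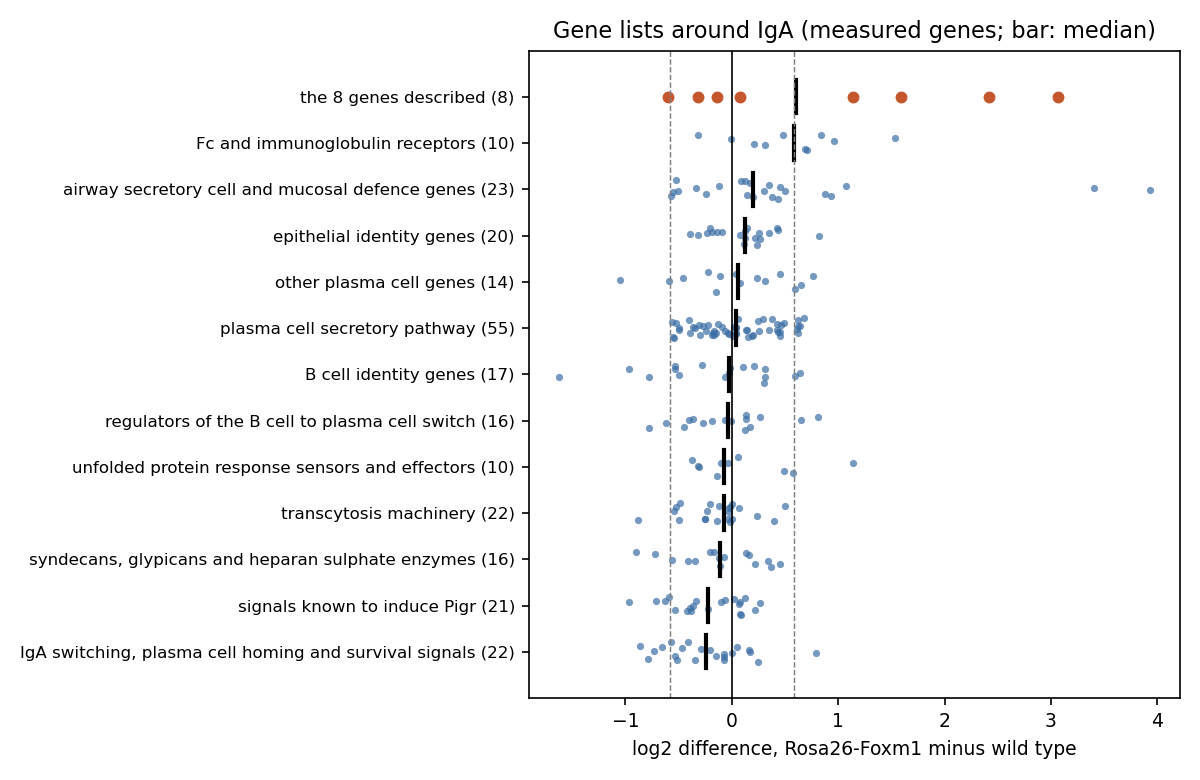
Log2 difference (Rosa26-Foxm1 minus wild type) of each measured gene, 1 point per gene, in the lists around IgA and in the 8 genes described (orange). Black bars are medians, dashed lines mark 1.5-fold, and the number of measured genes is in brackets. Medians of the lists run from -0.24 for IgA switching, homing and survival signals to 0.58 for Fc and immunoglobulin receptors. The 8 genes spread from -0.60 to 3.06, with a median of 0.61.

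Signals for IgA switching and for the homing and survival of plasma cells had a median of -0.24 over 22 measured genes, with 1 higher and 4 lower. The higher gene was Tnfsf13, which encodes APRIL, the ligand of Tnfrsf17. It read 24.5 in wild-type and 42.3 in transgenic lung, 1.73-fold higher. Tnfsf13b (BAFF), the related B cell survival ligand, differed by 0.17. The receptor Tgfbr2 for TGF-beta, which directs switching to IgA, was 1.82-fold lower (43.3 against 23.7). Which cells of the lung gave the Tgfbr2 value was not tested. The interleukin receptors Il6ra and Il21r were 1.72-fold and 1.66-fold lower. Il6st, the fourth gene past 1.5-fold, which was named after its value was seen, encodes the signalling partner of Il6ra and read 269 and 171.

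Signals known to induce Pigr lay on both sides of 0, with 8 of 21 measured genes above it. None was past 1.5-fold upward and 4 were lower, with a median of -0.22. Il1b, the highest, read 37.1 in wild-type and 44.6 in transgenic lung (0.27). Stat6, which relays interleukin 4, read 19.5 and 11.9, and the glucocorticoid receptor Nr3c1 3.00 and 1.54. Interferon gamma (Ifng) was 1.55 in wild-type lung and below the floor in the other. Tnf, named after its value was seen, was at -0.59 (2.76 against 1.84). The interleukins Il17a and Il17f were below the floor on both arrays.

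The transcytosis machinery that carries the receptor through the cell was near level. Of 22 measured genes none was 1.5-fold higher and 1 was lower, with a median of -0.07. Rab17, a small GTPase of epithelial transcytosis, read 1.43 in wild-type and 2.02 in transgenic lung (0.50). Rab3d, a GTPase of secretory granules, was the lower gene (4.54 against 2.46). Vamp8, a fusion protein of the apical membrane, was at 214 and 253.

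Of the Fc and immunoglobulin receptors, 5 of 10 measured genes were past the 1.5-fold size upward and none downward, and the median was 0.58. These were 4 receptors of IgG on myeloid and B cells, and Lgals3. The inhibitory receptor Fcgr2b read 6.99 in wild-type and 13.6 in transgenic lung, and Fcgr3 read 132 and 235. Lgals3, a galectin that binds IgE, was at least 2.90-fold higher, and its wild-type probe did not reach the floor. Fcgrt, the neonatal receptor that carries IgG across epithelium and recycles it, was at -0.32 (80.1 against 64.2). That is about the size of the probe SD, and smaller than the difference of Pigr.

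Of the airway secretory and mucosal defence genes, 5 of 23 measured were higher and none lower, with a median of 0.20. Lcn2, an antibacterial siderophore binder, was 15.3-fold higher (65.4 against 999), the anion exchanger Slc26a4 10.6-fold (1.33 against 14.1) and the protease inhibitor Slpi 2.10-fold (102 against 215). The mucin Muc5b and lactoferrin (Ltf) were lowest, at -0.55 and -0.57. Scgb1a1 was at -0.53. With median scaling 3 genes of this list were past 1.5-fold downward. Pigr, which is not in this list, was higher as were 5 of its genes, while 18 lay within 1.5-fold and Scgb1a1, the main club cell product, was below 0. Which cells gave these values was not tested.

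Heparan sulphate proteoglycans and their enzymes, the family of Sdc1, had a median of -0.11 over 16 measured genes, with none higher and 2 lower. Sdc4, another syndecan, was at 0.34 with 28.7 in wild-type and 36.3 in transgenic lung, on the other side of 0 from Sdc1. The glypican Gpc1 was 1.65-fold lower (57.9 against 35.0), and Gpc6 at least 1.86-fold lower, since its transgenic value did not reach the floor.

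Of the 48 nearest named genes with a probe, 3 on each side of every member, 31 were measured, and 2 were higher and 3 lower by 1.5-fold, with a median of -0.06. These shares are near those of all measured genes. On chromosome 5 beside Jchain, Utp3, Rufy3 and Grsf1 differed by 0.13, 0.23 and 0.04, and Enam, Ambn and Prol1 were below the floor. On chromosome 1 Pigr lies between Fcamr, a receptor for IgA and IgM, and the interleukin genes Il24, Il19 and Il10. Fcamr, Il24 and Il19 were below the floor on both arrays, and Il10 was 1.43 in wild-type and below the floor in transgenic lung. Beside Mzb1, Spata24 was 1.54 higher on the log2 scale (1.63 against 4.73), close to the 1.59 of Mzb1, and Slc23a1, a vitamin C transporter, read 3.00 in wild-type and 1.09 in transgenic lung. Whether the probes of Mzb1 and its neighbour Spata24 share sequence was not tested.

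The genes most like Jchain over both log2 values were sought by Euclidean distance over these 2 arrays. They were Chil1 (distance 0.75), C1qa (1.19), Lcn2 (1.34), Cstb (1.41) and Slpi (1.41). Chil1, a chitinase-like protein, read 82.9 in wild-type and 410 in transgenic lung, and C1qa, a chain of complement C1q, 73.1 and 199.9. Nearest to Pigr were Ctsk (0.72), Lrg1 (0.79), C1qc (0.90), Clec4n (0.91) and Saa3 (1.02). Ctsk, a cysteine protease, read 15.5 and 75.4. The distance uses probe levels, which depend on each probe's own brightness, so such likeness over 2 arrays is only a description.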

How the data were processed

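RNA from left lung lobes was labelled with digoxigenin and measured on 1 one-colour array per genotype, per the labels' protocols. The authors deposited linear probe intensities with a median of 1.00 on both arrays. How they imaged, background-corrected and scaled them is not given in the sources. Of 33012 probes, 14411 named 1 gene in the platform annotation, 247 several and 18354 none in the table used here. Symbols were updated by gene ID to RefSeq (GRCm38.p6), which matched 13832 of 13840 genes.

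Intensities were quantile normalised, raised to a floor at the 50th percentile and log2 transformed. Where a gene had several probes, that of the highest mean stood for it. Rosa26-Foxm1 minus wild type gives the sign. The probe SD is the root mean square, over genes, of the difference between 2 probes of a gene, divided by the square root of 2. Brightness classes are 20 equal classes of mean log2 intensity. Scripts used Python 3.11.15, numpy 2.4.6, pandas 2.3.3 and statsmodels 0.14.6, and the steps were tested on simulated data. Known changes were put only into genes with a probe above the 75th percentile, so differences bounded by the floor were not tested. Other settings tried were loess (span 0.3), median scaling, no scaling of the deposited values, a floor at the 25th percentile, at the 75th or none, and the median over probes.

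Named genes are the members, up to 3 at each end of every list, neighbours, nearest genes and lung markers. Exceptions are marked. The ER stress element was added to the motifs later. Members, lists and rules were chosen with earlier results of these data known. The number of arrays limits the precision. Lungs taken at 24 weeks were not analysed here.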

Additional observations from a re-analysis of the deposited data

How the results depend on the processing

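Each result was recomputed under 7 alternatives. Jchain stayed between 3.06 and 3.23, Pigr between 2.42 and 2.48, Tnfrsf17 between 1.12 and 1.31 where measured, Prdm1 between -0.35 and -0.28 and Irf4 between 0.04 and 0.11. Mzb1 was 1.59, and 1.23 with the floor at the 75th percentile, which raises its wild-type value. That floor left 5 members measured, with a median of 1.23. Sdc1 was short of 1.5-fold with median scaling, the deposited values and loess, so 0 members were 1.5-fold lower there. Counts over all genes moved with the floor. At 2-fold 540 were higher and 533 lower with the floor at the 25th percentile, 44 and 21 at the 75th, and 792 and 827 with none. At 1.5-fold they were 1361 and 1548, then 238 and 289, then 1827 and 2000. Of calls at 2-fold, 56.8% were higher as reported, 67.7% with the 75th percentile floor and 48.9% with none. All 84 list medians moved by less than the probe SD, while 35 of 168 list counts moved by over 1.5 times. The medians of B cell identity genes, other plasma cell genes and regulators of the B cell to plasma cell switch took both signs. The Fc and immunoglobulin receptors had 3 higher genes with the 75th percentile floor and 8 with no floor. No paired analysis was possible because each group is 1 array. Leaving out a replicate was not possible for the same reason. Dim genes, Tnfrsf17 among them, are limited by their signal near the floor.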

Other observations

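Among markers of lymphoid follicles, the chemokines Ccl19 and Cxcl13, which draw T cells and B cells into lymphoid tissue, were 2.15-fold and 2.04-fold higher in transgenic lung. Ccl19 read 7.20 in wild-type and 15.5 in transgenic lung, and Cxcl13 3.93 and 8.01. Ccl21a was at 162 and 205, and Ltb, a lymphotoxin subunit, was level at 38.5 and 38.2. Clu was also level, at 290 and 291. Of the 7 genes in this list 5 had a probe, and their median was 0.33. At the 1.5-fold size 2 were higher and 0 lower, beside 7.1% and 8.46% of all measured genes. Cxcr5, the receptor of Cxcl13, was lower, at 6.50 against 3.80. The chemokine Ccl22 of dendritic cells was 2.47-fold higher (1.65 against 4.07), while other dendritic cell genes lay on both sides, with Zbtb46 at -0.95 and Cd209a at -0.65. These genes were chosen after their values were seen.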
